A study of Mus musculus with 8 samples.

Results

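The genes examined here code for the proteins of the cytoplasmic ribosome, as measured in RAW264.7, a line of mouse macrophages. They were taken by symbol from a table of read counts: every symbol that starts with Rpl, Rps or Rplp followed by a digit was kept, apart from 10 symbols of the Rps6k kinases and 6 symbols with the pseudogene mark -ps. This gave 85 of 23143 genes. The rule uses no measured value, but it was chosen with earlier results of these data known. Of the 85, 76 are the standard proteins of the ribosome, 46 of the large (60S) and 30 of the small (40S) subunit. Another 8 are paralogues of a standard gene (Rpl3l, Rpl7l1, Rpl10l, Rpl22l1, Rpl36al, Rpl39l, Rps27l and Rps4y2), and Rps19bp1, which meets the symbol rule, codes for a protein that binds Rps19 and is no part of the ribosome.

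The time course consisted of 8 libraries: untreated cells at 0 min, and cells given LPS, the cell wall component of Gram-negative bacteria that macrophages sense through Toll-like receptor 4, at 100 ng/ml for 15, 30, 45, 60, 75, 90 or 120 min. The labels call the molecule total RNA and the RNA fraction cytoplasmic, and all cells are of the same line, without a genetic change. Every time point has 1 library, so no difference has a replicate check, and each interval below covers counting error only. Which mRNAs keep, gain or lose abundance in the first 2 hours of macrophage activation is the question the time course addresses.

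A ribosome is assembled in the nucleolus from ribosomal RNA and 1 copy of most of these proteins, so their synthesis has to be matched. In vertebrates the mRNAs of ribosomal proteins are abundant, short and long-lived, and they start with a tract of pyrimidines, the 5′ terminal oligopyrimidine (TOP) motif. Through this motif the kinase mTOR, with the RNA-binding protein Larp1, controls how many ribosomes the mRNAs carry, so the output of these genes is known to be set in large part at translation, which counts of RNA do not measure.

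The libraries held 100250892 to 159077286 counts. Ribosomal RNA had been depleted before sequencing, and the remaining counts of Rn45s, the ribosomal RNA precursor, took 8.18% to 9.11% of the counts at 0, 30, 60 and 120 min, but 12.96%, 16.64%, 20.53% and 15.80% in the libraries of 15, 45, 75 and 90 min. The 8 macrophage markers Csf1r, Cd68, Lyz2, Emr1, Itgam, Cd14, Fcgr1 and Mpeg1 together made up 5624 to 6839 CPM, counts scaled to the library total. The 15 markers of T cells, B cells, epithelium, fibroblasts and endothelium together stayed at 0.214 to 0.389 CPM, with Cd3g, Epcam, Cdh1, Krt18, Col1a1 and Col1a2 at 0 in every library.

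The pyrimidine tract was visible in the reference sequence of many members. RefSeq promoters (GRCm38.p6) were at hand for 63 of the 85 genes, with 75 annotated starts. A run of at least 10 pyrimidines (C or T) that touched the 20 bases on either side of the start was found on the transcript strand at 26 of these 75 starts (34.7%), against 3478 of 32851 promoters of all genes (10.6%). On the opposite strand, the same search found 1 of 75 (1.33%) against 11.8%. These runs describe the annotated start, which was not measured here. The sequences below are shown because they span the range from members with a long tract to those without one, and because several belong to members whose counts departed from the rest. Each gives the 14 bases before the annotated start and the 16 bases from it on, on the transcript strand, with the longest pyrimidine run in capitals.
Rpl7a, chr2:26910793-26910822, plus strand: TTCCCTCTTCTTTCTTTCTCCagcagccga
Rpl27a, chr7:109519181-109519210, plus strand: acttcgtgagCTCCTCCCTTTTCCCTTTCT
Rpl15, chr14:18270971-18271000, minus strand: tgggagaaagCCTTCTTCCTTTCCTCTggc
Rps10, chr17:27635229-27635258, minus strand: cgccgcgcacgCCCCTTCCTTTCCagcctc
Rpl13a, chr7:45128730-45128759, minus strand: aaaccctgcgacaagaCCTCCTCCTTTCCC
Rps6, chr4:86857352-86857381, minus strand: agcggaagtcgggCCTCTTTTTCgtgacgc
Rpl22l1, chr3:28805494-28805523, plus strand: tgcggcgcaagcccgTTCTCTTCCCacggc
Rps27, chr3:90213633-90213662, minus strand: tttccgctttcgCTCCTTTCCggcggtgac
Rps19bp1, chr15:80264291-80264320, minus strand: agggcggaagtagCTCgccgcgtgtgggcg
Rpl7l1, chr17:46782641-46782670, minus strand: tgaggctgcgcaagcgcagtagctgaagca
Rpl7a and Rpl27a carried runs of 21 and 20 pyrimidines over the start, and Rps10 and Rps6 runs of 13 and 10. At Rps27 the run was 9 bases long, below the limit. Rpl7l1 and Rps19bp1 had no run longer than 3 bases near the start, and that of Rpl7l1 lay outside the bases shown.

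Ribosomal protein genes were among the most counted genes of these macrophages. The members took 7.79% of all counts at 0 min (10201785 counts, exact Clopper-Pearson 95% interval 7.78% to 7.79%), and 37 of them were among the 100 genes with the most counts. In the 7 stimulated libraries, from 15 to 120 min in order of time, the share was 6.80%, 7.25%, 6.09%, 7.16%, 5.93%, 6.47% and 6.72%. The untreated library thus had the highest share of the 8, and the lowest shares were found in the 2 libraries with the most Rn45s. With Rn45s taken out of the totals, the share was 8.52% at 0 min and 7.30% to 7.89% in the stimulated libraries, again with the highest value at 0 min. The intervals of the other shares were as narrow. Since every share is read against the counts of its own library, less mRNA of the members and more of other RNA cannot be told apart.

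Per length, the median member was expressed above 99.3% of the genes tested. Counts were normalized by median-of-ratios size factors, and genes whose normalized counts averaged at least 100 over the libraries were tested, which 10494 genes and 80 members reached. The level was given as rpkm, the CPM for each kilobase of uniquely mappable transcript, averaged over the 8 libraries. The median member stood at 1071 rpkm (quartiles 572 and 1501), and the median of all tested genes at 10.8 rpkm. The 45 tested 60S proteins had a median of 965 rpkm and the 30 tested 40S proteins one of 1226 rpkm.

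The highest level belonged to Rplp1, a protein of the acidic stalk to which elongation factors bind, with a mean of 4501 rpkm (3841 to 5355 over the libraries). It was followed by Rpl41, the smallest ribosomal protein, with 2498 rpkm, and by the 40S proteins Rps3a with 2256 rpkm, Rps18 with 2147 rpkm and Rps12 with 2072 rpkm. These 4 overlapped in their ranges across libraries, whereas the lowest value of Rplp1 was above the highest value of Rpl41, 3019 rpkm. Rpl4 had the most counts of any member without adjustment for length, 326487 normalized counts on average.

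**Figure D1:**
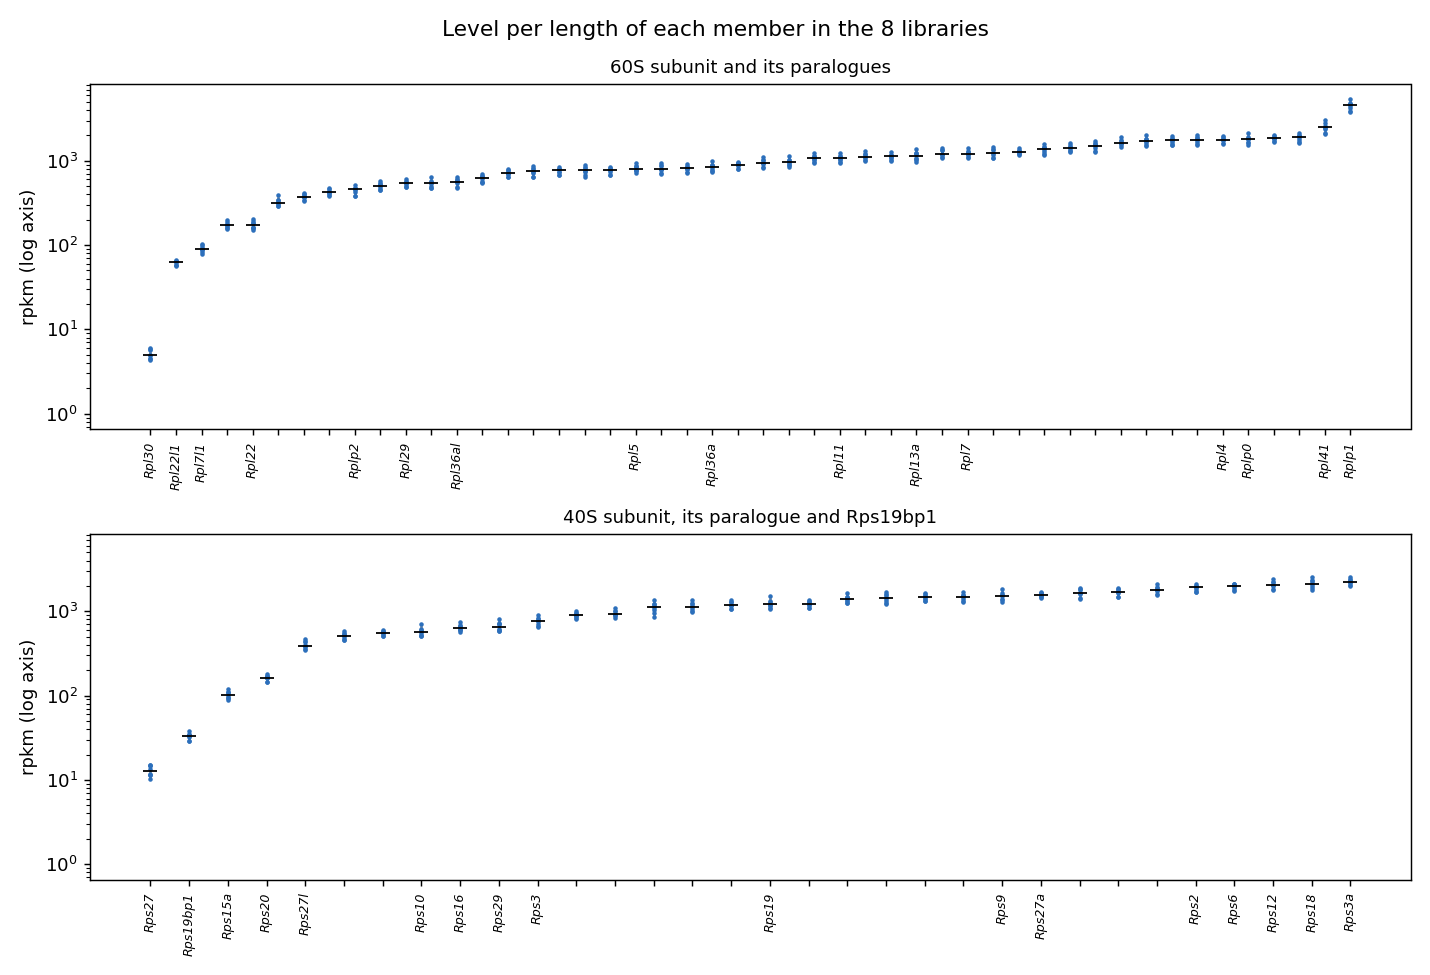
Level of the 80 tested members in rpkm (log axis), with 60S genes above and 40S genes with Rps19bp1 below, ordered by their median, with labels for the genes named in the text. Each dot is 1 of the 8 libraries and each dash the median; the middle of the members lies between the quartiles of 572 and 1501 rpkm, while Rpl30 (mean 5.13 rpkm) and Rps27 (12.9 rpkm) stand far below the rest.

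At the low end of the range stood Rpl30 with a mean of 5.13 rpkm, Rps27 with 12.9 rpkm, Rps19bp1 with 33.2 rpkm, Rpl22l1 with 62.2 rpkm and Rpl7l1 with 90.8 rpkm. Rps27, a zinc finger protein of the 40S subunit, and Rpl30, a 60S protein, were thus counted far below the level of a typical member. Reads that matched more than 1 gene symbol had been discarded by the authors, and this touched some members. Rps27 shares 284 of its 531 distinct 58-base windows with Gm9846, which had 0 counts in every library, so its counts come from the remaining 247 windows. Rpl26 shares 265 of 469 windows with Gm15772. It had 114 counts at 0 min while Gm15772 had 55100, and its mean normalized count of 92.7 left it just outside the limit of 100. The next members, above the limit, were Rps27 with a mean normalized count of 396 and Rpl30 with 618. For Rpl30, whose counts were 770 at 0 min and 435 to 888 afterwards, the matched transcripts share no window with another symbol. Windows were counted in transcripts of GENCODE vM21, and sharing within the transcript set that the authors mapped to was not checked. The low levels of Rpl30 and Rps27 may therefore be of mapping or of expression, which was not tested. In all, 75 members share no window and 10 do, among them Rplp2 (257 of 907 windows, with Wdr89), Rps15a (121, with Rps15a-ps4), Rps2 (92, with Gm10653) and Rps19 (77, with Rps19-ps3).

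The other 4 members below the limit were paralogues that this cell line barely expressed. Rpl3l, the form of Rpl3 found in muscle, had 19 to 44 counts per library, against 278367 counts of Rpl3 at 0 min. Rpl10l, a retrogene of Rpl10 active in testis, and Rpl39l had 0 to 4 counts each. Rps4y2 had 1 count at 15 min and 0 in the other 7 libraries, where a count of 0 allows up to 3 counts.

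No ribosomal protein gene was called higher or lower at any time point. A gene was called, with the limits of the study, when its log2 ratio to 0 min was beyond 0.5 in either direction and the unadjusted p-value of an exact negative binomial test of the pair of libraries was under 0.05. At 60 min 0 of 80 members were called higher and 0 lower, where 4.35% of the 10494 tested genes were called higher and 3.21% lower. At 120 min 0 of 80 were called in either direction, beside 9.82% of the tested genes higher and 8.79% lower. The same was true at 15 min (0.314% and 0.152% of the tested genes), 30 min (1.3% and 0.21%), 45 min (5.01% and 2.04%), 75 min (6.76% and 4.95%) and 90 min (7.69% and 6.17%). The test compares single libraries and cannot speak for the condition. Among the 2445 tested genes that averaged at least 10000 normalized counts, which include 76 members, the smallest log2 ratio called was 0.64 to 0.66 in size, depending on the time. The largest log2 ratio of these 76 members was 0.37 in size (Rpl7l1 at 120 min).

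The members kept close to the untreated level and to each other. At 60 min their median log2 ratio was -0.03 (quartiles -0.06 and 0.01), a level 0.979 times that of 0 min, and the median of all tested genes was -0.01. At 120 min the median was -0.01 (quartiles -0.07 and 0.05), and that of all tested genes -0.01. When the libraries were scaled by total counts, members and all tested genes were shifted together, to -0.13 and -0.10 at 60 min and to -0.21 and -0.21 at 120 min, whereas removal of the length trend described below turned the members to 0.06 and 0.09. The spread was narrow beside that of other genes: at 120 min 77 of 80 members lay within 0.2 of the untreated level on the log2 scale, compared with 3897 of 10494 tested genes, and the interquartile range was 0.119 for members and 0.569 for all tested genes. Abundant genes of like length also spread more widely, with an interquartile range of 0.312 at 120 min in 334 genes outside the list that had transcripts of 434 to 2045 bases and averaged at least 16048 normalized counts. For a member of median depth, the counting interval of the log2 ratio reached 0.0112 to 0.0132 to either side, so that the gaps between members were for the most part larger than the counting error.

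In the shape of the time course, members moved in step. From 15 to 120 min in order of time, the median log2 ratio was -0.13, -0.08, -0.17, -0.03, -0.07, -0.00 and -0.01. In the same order 77, 72, 79, 52, 60, 41 and 45 of 80 members were below the untreated level, against 44.3%, 47.1%, 51%, 51%, 50.5%, 51.2% and 51% of the tested genes. Of the 2836 other genes of like length, 76.7%, 72.6%, 77.8%, 66.8%, 67.2%, 63.7% and 62.1% were below it. For the members these shares were 96.2%, 90%, 98.8%, 65%, 75%, 51.2% and 56.2%. The 45 min library was the lowest of the 8 for 66 of 80 members, as it was for 15.5% of all tested genes and 28.2% of those of like length. The untreated library was the highest for 29 of 80 members and for 21.7% of all tested genes. Rpl11, a 60S protein known to bind Mdm2, shows the common course: from 0 to 120 min its normalized counts were 107589, 98186, 102302, 94815, 105585, 103210, 106607 and 106366. Its log2 ratio stayed within 0.01 of the median member at all times, the closest of any member. The large and the small subunit had similar medians, at 45 min of -0.18 for 60S and -0.16 for 40S proteins, and at 120 min of -0.01 and -0.02.

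**Figure D2:**
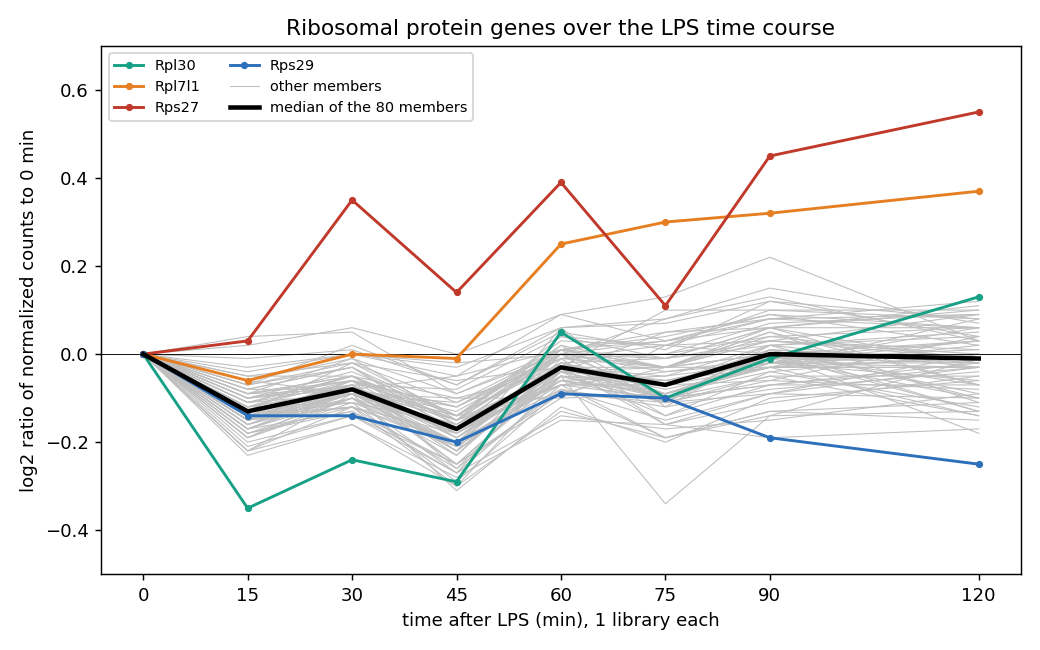
Log2 ratio of normalized counts to 0 min (y axis) against time after LPS in min (x axis) for the 80 tested members, 1 library per time point. The black line is the median member, which was lowest at 45 min (-0.17) and at -0.01 at 120 min; grey lines are single members, and the 4 coloured lines are those described in the text.

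The dips went with transcript length. Genes with short transcripts were lower against 0 min in every later library. Across all tested genes with a length, Spearman's correlation between length and log2 ratio for the 15, 45, 60 and 120 min libraries was 0.60, 0.49, 0.25 and 0.18 (10359 genes, which share their libraries). Among the 80 members alone, most of them short, it was 0.15, 0.22, 0.09 and 0.07, and -0.05 at 30 min. The fifth of the genes with the shortest transcripts, which holds 71 of the 80 members, had median log2 ratios of -0.11, -0.17, -0.08 and -0.08 in these libraries, and the fifth with the longest 0.15, 0.22, 0.12 and 0.19. The 2836 other tested genes with transcripts of 434 to 2045 bases, the central range of the members, stood at -0.09 at 15 min and -0.14 at 45 min, near the -0.13 and -0.17 of the members. At 60 and 120 min genes of that length had medians of -0.08 and -0.08, with the members at -0.03 and -0.01.

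With the trend of length removed from each library, the early dips were gone and the later medians stood above 0. From 15 to 120 min the corrected medians of the members were -0.01, 0.01, 0.02, 0.06, 0.06, 0.08 and 0.09. Above 0 after correction were 70 of 80 members at 60 min and 66 at 120 min, against 49.8% and 50.6% of the tested genes. Abundant genes of like length were as high or higher, with corrected medians of 0.08 at 60 min and 0.14 at 120 min. Both the trend of the log2 ratio with transcript length and the share of Rn45s differed between the libraries. The part of either in the dips was not tested.

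**Figure D3:**
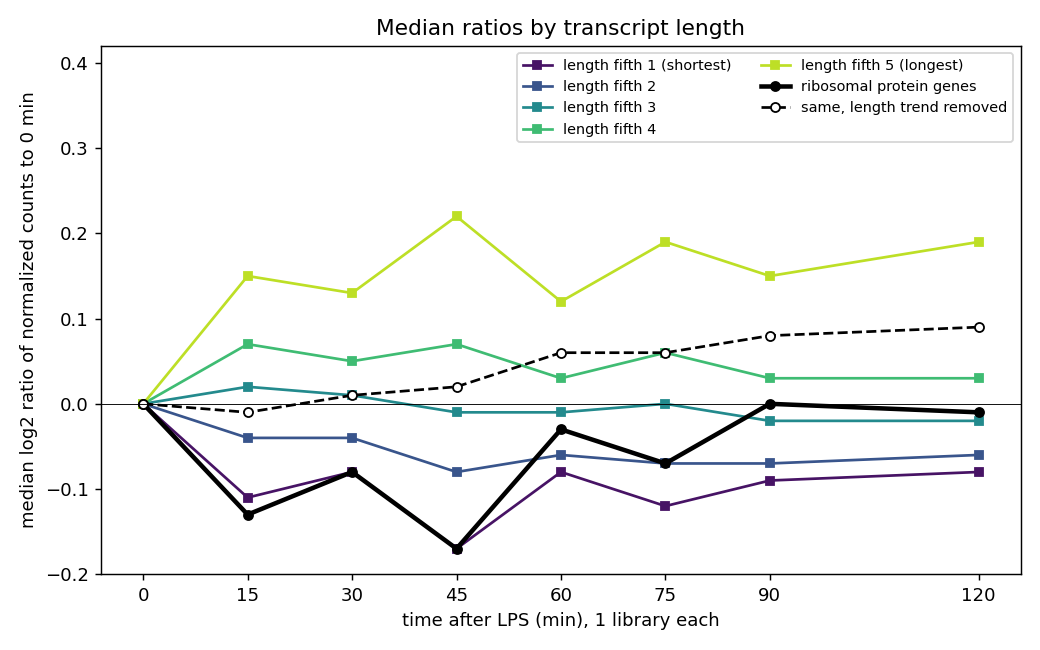
Median log2 ratio of normalized counts to 0 min (y axis) against time after LPS in min (x axis, 1 library each) for the tested genes in 5 classes of transcript length, and for the ribosomal protein genes before (solid black) and after (dashed) removal of the length trend. The members followed the shortest class down to -0.17 at 45 min, and after correction they ran from -0.01 at 15 min to 0.09 at 120 min.

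Few members left the common course. Of the 80, 46 stayed within 0.1 of the median member at all 7 times on the log2 scale and 74 within 0.2. Among those that went further were Rps27, Rpl7l1, Rps29, Rpl22l1 and Rpl30, of which Rps27 and Rpl30 rest on few counts.

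Rpl7l1 showed the largest steady departure among well-counted members. This paralogue of the 60S protein Rpl7 is known from nucleolar pre-ribosomes. In order of time its normalized counts were 25048 (untreated), 24089, 25088, 24933, 29850, 30942, 31358 and 32415. The first 4 libraries lay below the last 4 with no overlap. At 120 min its log2 ratio was 0.37 (95% interval 0.35 to 0.39), 1.29 times the untreated level, and 0.25 (0.23 to 0.28) at 60 min, both short of the limit of 0.5. Its level per length was 6.32% of that of Rpl7 at 0 min, 7.8% at 60 min and 8.38% at 120 min. Rpl7l1 has a longer transcript than most members (2606 bases), and the ratio at 120 min was 0.41 with the length trend removed and 0.17 under scaling by total counts.

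Rpl22l1, a paralogue that can replace the 60S protein Rpl22, had normalized counts of 3638 (untreated), 3676, 3800, 3630, 3871, 3985, 4223 and 3710 in the 8 libraries. It was highest at 90 min, with a log2 ratio of 0.22, and back near the untreated level at 120 min with 0.03 (-0.03 to 0.09). Rpl22 itself was at -0.05 at 60 min and at -0.14 (-0.16 to -0.12) at 120 min. Per length, Rpl22l1 reached 32.2% of the level of Rpl22 at 0 min, 38.6% at 90 min and 36.1% at 120 min. Rpl36al, whose product differs little from that of Rpl36a, stood at 64.7% of the level of Rpl36a at 0 min and at 70.7% at 120 min. Rps27l, a p53 target in the field of DNA damage, followed the median member with -0.17 at 45 min, 0.02 at 60 min and -0.09 at 120 min.

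Rps27 had the highest ratio of the 80 tested members. Before normalization it had 385 (untreated), 353, 514, 322, 486, 253, 354 and 596 counts in order of time. At 120 min the log2 ratio was 0.55 (0.37 to 0.74) and at 60 min 0.39 (0.20 to 0.59), but at 75 min, between those times, 0.11 (-0.12 to 0.35), an interval that includes 0. It was the only 1 of the 80 tested members beyond 0.5 and did not pass the test of the pair of libraries. Against the 30 min library its log2 ratio at 120 min was 0.20, and under total counts 0.35. Without the test, 15.1% of the tested genes were above 0.5 at 120 min. Rpl30 rests on similar counts and was lowest at 15 min with -0.35 (-0.51 to -0.18) and highest at 120 min with 0.13 (-0.01 to 0.27).

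Rps29, a zinc-binding 40S protein, went the other way. Against 30203 normalized counts in untreated cells it had 27345, 27317, 26276, 28444, 28250, 26390 and 25417 from 15 to 120 min. Every stimulated library was below the untreated one, as was true of 29 of the 80 tested members. From 15 to 75 min its gap to the median member was between -0.01 and -0.07, then -0.19 at 90 min and -0.24 at 120 min. The lowest library was that of 120 min with a log2 ratio of -0.25 (-0.27 to -0.23), or 0.842 times. With the 30 min library as the reference the ratio was -0.10, and under total counts -0.45.

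Of the members known for roles outside the ribosome or in innate immunity, 6 others are given here, and all 6 stayed within 0.2 of the median member at every time. Rpl13a, whose release from the 60S subunit is known to silence inflammatory mRNAs in human monocytes after interferon, had log2 ratios of -0.26 at 45 min, -0.08 at 60 min and -0.15 (-0.16 to -0.14) at 120 min, and of -0.04 at 120 min with the length trend removed. Rps3, which also takes part in gene regulation by NF-kappaB, was at -0.27 at 45 min, -0.01 at 60 min and -0.05 (-0.06 to -0.04) at 120 min, the last turning to 0.03 without the length trend and to 0.08 against the 30 min library. Rps6, the substrate of the S6 kinases, was at 0.09 at 60 min and 0.12 (0.11 to 0.12) at 120 min, but at -0.09 when libraries were scaled by total counts and at -0.08 when Rn45s was left out of these totals. Rpl5, which with Rpl11 and 5S RNA regulates Mdm2, stood at -0.01 at 60 min and -0.07 at 120 min. Rps27a, made as a fusion with ubiquitin, was at 0.06 and 0.03, and Rps19, mutated in Diamond-Blackfan anaemia, at -0.13 and -0.13.

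The remaining members at the ends of the order at 120 min were Rpl29 with 0.11 at the upper end, and Rps16 with -0.18 and Rps10 with -0.17 at the lower. Rps10, with 1 of the pyrimidine tracts shown above, had 66158 normalized counts at 0 min and between 54548 and 59524 in the 7 stimulated libraries, which do not reach the untreated value. At 60 min the lowest were Rps10 with -0.15, Rps9 with -0.14 and Rps19 with -0.13. The stalk proteins Rplp0, Rplp1 and Rplp2 were at -0.08, -0.08 and -0.02 at 60 min and at -0.04, 0.00 and 0.06 at 120 min. Rpl41 and Rps18, also among the most abundant, had -0.12 and -0.07 at 60 min and -0.06 and -0.11 at 120 min, while Rps3a and Rps12 had 0.00 and -0.04, then -0.01 and -0.06. Rps19bp1, the member that is no ribosomal protein, was at -0.06 and 0.05.

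The genes that serve ribosomes in other ways were described with lists of known members, by their medians and calls. Rpsa, Fau and Gnb2l1 (now Rack1), ribosomal proteins that the symbol rule misses, had a median of -0.05 at 60 min and -0.01 at 120 min, with 0 of 3 called. They ranged at 120 min from -0.01 for Gnb2l1 to 0.08 for Fau. Proteins of the mitochondrial ribosome, which is built of a separate set of proteins, had a median of -0.08 at 60 min and -0.09 at 120 min over 76 genes. At 120 min 1 of the 76 was called higher (Mrpl52, log2 ratio 0.65) and 1 lower (Mrpl43, -0.71), where 9.82% and 8.79% of all tested genes were called. Under total counts 0 were called higher and 4 lower, Mrpl43 among them.

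A few genes of ribosome assembly were called higher. Of 27 such genes, whose products make ribosomal RNA, process it and join it with the proteins, 2 were called higher at 60 min (Nop58 and Rrs1), 4 at 75 min, 3 at 90 min and 6 at 120 min, beside 4.35%, 6.76%, 7.69% and 9.82% of all tested genes, and 0 were called lower at any time. As shares of the list, 2 and 3 of 27 are near those of all tested genes. The 6 were Rrs1 with a log2 ratio of 1.06, Nop58 with 0.92, Utp20 with 0.77, Ddx21 with 0.75, Polr1b with 0.72 and Rrp12 with 0.66. Rrs1, a factor of 60S assembly, had 17643 counts at 0 min and 38792 at 120 min. The list had a median of 0.15 at 60 min and 0.43 at 120 min, and all 27 genes were above 0 at 120 min, down to Noc2l with 0.03, whereas 24 of 27 were above 0 under total counts. With the length trend removed the medians were 0.16 and 0.40. The calls depended on the scale: under total counts 0 were left at 60 min and 1 at 120 min (Rrs1), with a median of 0.06 and 0.23, and with Rn45s left out of the totals 2 were left at 120 min (Rrs1 and Nop58).

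The other TOP mRNAs, most of which code for translation factors, had a median of 0.11 at 60 min and 0.17 at 120 min over 14 genes, beside -0.03 and -0.01 in the ribosomal proteins, and of 0.01 and -0.03 under total counts. With the length trend removed their medians were 0.15 and 0.24, beside 0.06 and 0.09 in the ribosomal proteins. Pabpc1, the poly(A)-binding protein, was the only gene of the 14 called, with log2 ratios of 1.12, 0.86, 0.90 and 0.99 in the libraries of 45, 75, 90 and 120 min. In these libraries 5.01%, 6.76%, 7.69% and 9.82% of all tested genes were called higher, and 1 of 14 is near such shares. At 60 min Pabpc1 had 0.34, below the values on either side. Eif4b was the lowest of the 14 at 120 min with -0.03. Regulators of TOP mRNAs had a median of 0.05 at 60 min and 0.29 at 120 min over 13 genes, and of -0.04 and 0.09 under total counts. With the length trend removed the medians of the regulators were -0.01 and 0.20. Larp1 stood highest at 120 min with 0.49 and was not called. Eif4ebp2, which codes for a translational repressor, was called higher at 45 min alone, with 0.86. In the libraries on either side it had -0.04 at 30 min and -0.12 at 60 min, then 0.37 and 0.38 at 75 and 90 min. At 45, 75 and 90 min Rn45s took 16.64%, 20.53% and 15.80% of the counts. It took 8.18% and 8.27% at 30 and 60 min, where Eif4ebp2 and Pabpc1 were lower. With 12.96% at 15 min they had 0.26 and 0.14, and with 9.11% at 120 min 0.16 and 0.99. The part of Rn45s in these ratios was not tested. Ddit4, an inhibitor of mTOR complex 1, was called higher from 30 to 75 min, with a log2 ratio of 2.95 at 45 min, and lower at 120 min with -1.15. It had 210 counts at 0 min, 1227 at 45 min and 100 at 120 min. Of the 13 regulators, 1, 2, 1 and 1 were called higher at 30, 45, 60 and 75 min, and 1 lower at 120 min. Beside these, 1.3%, 5.01%, 4.35% and 6.76% of all tested genes were called higher, and 8.79% lower.

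**Figure D4:**
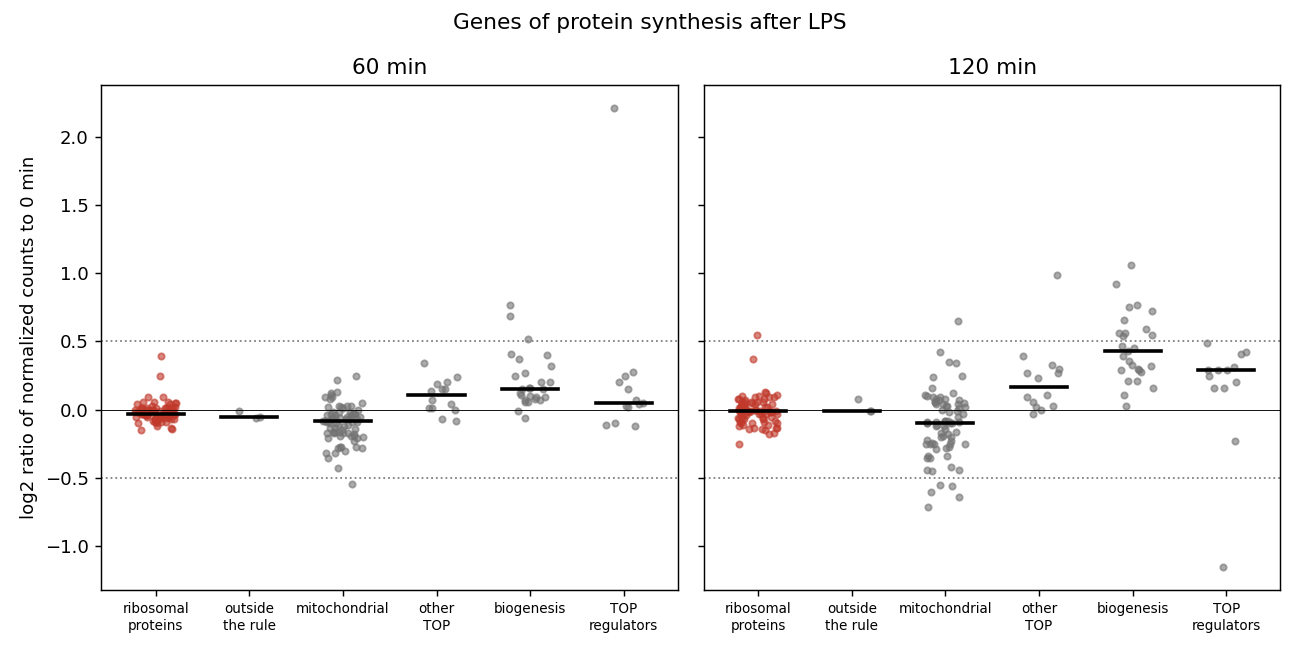
Log2 ratio of normalized counts to 0 min (y axis) at 60 min (left) and 120 min (right) for the 80 ribosomal protein genes (red) and 5 other lists of genes of protein synthesis (grey). Each dot is a gene, thick bars are medians and dotted lines the limit of 0.5; at 120 min the ribosomal proteins had a median of -0.01, the 27 biogenesis genes one of 0.43.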

How the data were processed

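Read counts without normalization, 1 value per gene symbol, were deposited by the authors for 8 libraries of RAW264.7 cells, 1 per time point, in 1 table with no column left unused. According to the methods, ribosomal RNA was depleted, stranded libraries were made, reads of 58 bases were aligned with Bowtie to RefSeq transcripts of mm10 with up to 2 mismatches, and reads matching more than 1 symbol were dropped. The submitters' processing notes name CASAVA 1.8.2 and DESeq 1.10.1, and the version of Bowtie is not given in the sources used here. Whether counting used the strand is not stated.

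Size factors were medians of ratios over the 8 libraries. Genes that averaged at least 100 normalized counts were tested. Groups of 1 library leave a quasi-likelihood fit without residual degrees of freedom. Each stimulated library was therefore compared with that of 0 min by the exact negative binomial test of edgeR 4.0.16, with the parametric dispersion trend that DESeq2 1.42.0 (R 4.3.3) fitted to all libraries as if they were replicates, as in the study. A call needed a log2 ratio beyond 0.5 and an unadjusted p-value under 0.05. These scripts were tested on simulated data. Because the dispersion takes in the response to LPS, a call depends on how much the libraries differ as a whole.

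Lengths were counted as distinct 58-base windows of GRCm38 transcripts from GENCODE vM21, found through their RefSeq accessions, of which those found under no other symbol gave the rpkm values. Transcripts of the present annotation can be longer than those mapped to, as for Rps15a (5179 bases) and Rps20 (3706 bases), and a level is then too low. The length trend was a lowess curve over log2 length (30% of the genes, statsmodels 0.14.6) and was subtracted from the log2 ratios. Intervals are exact at 95% (binomial, scipy 1.17.1) and cover counting error only. Promoters and coordinates were those of RefSeq on GRCm38.p6.

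The members and all gene lists were chosen with earlier results of these data known. Named by rule are the 5 members with the highest and the 5 with the lowest level, the 5 highest and 5 lowest ratios at 120 min, the 3 of each at 60 min, the paralogues, the stalk, members with known extra roles, and of each other list the highest and the lowest gene at 120 min. The other called genes of the lists, Rpl4, Rn45s and the symbols that share sequence with members were chosen once their values were known. Alternatives were total counts with and without Rn45s, TMM factors, removal of the length trend, other reference libraries and sets of libraries, other call rules, and other sets of members. The choice to leave out members that share sequence was made after the data were seen.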

Additional observations from a re-analysis of the deposited data

How the results depend on the processing

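The number of members called stayed at 0 at 60 min under total counts, total counts without Rn45s, TMM factors, the fold limit alone, Benjamini-Hochberg adjustment, the edgeR dispersion trend, no filter and the 0, 30, 60 and 120 min libraries alone. At 120 min it was 1 with the fold limit alone (Rps27) and 0 under the other 7. Over all tested genes, 793 were called at 60 min and 1952 at 120 min, against 337 and 1068 after Benjamini-Hochberg adjustment, 1328 and 3052 with the fold limit alone, and 490 at 60 min with the edgeR dispersion trend. The median log2 ratio of the members at 60 min, -0.03, was -0.13 under total counts, -0.13 under total counts without Rn45s, -0.04 under TMM factors, 0.06 with the length trend removed and 0.04 against the 30 min library. At 120 min, -0.01 became -0.21, -0.20, -0.03, 0.09 and 0.05 in that order. The median of all tested genes stood at -0.10 (60 min) and -0.21 (120 min) under total counts and at -0.11 and -0.20 without Rn45s, so the sign of these small medians rests on the scale chosen. Restricting members to standard ribosomal proteins, summing their counts, or leaving out those that share sequence moved either median by at most 0.01. Under total counts, calls among the 27 ribosome assembly genes went from 2 to 0 at 60 min and from 6 to 1 at 120 min. At 45 min the median was -0.17, between -0.36 under total counts and 0.02 with the length trend removed. The cause of these differences was not tested. No paired analysis was possible because every time point has 1 library. Depth limits only the least counted members: of those tested, Rps27 and Rpl30 had counting intervals for the log2 ratio at 120 min of 0.37 to 0.74 and -0.01 to 0.27.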
